A study of Mus musculus with 9 samples.

Results

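Transcripts of 10 immediate early genes were followed array by array in RNA of the mouse lateral nasal gland, which secretes odorant-binding and other proteins into the nasal mucus. The genes were Fos, Jun, Junb, Egr1, Ccn1, Btg2, Ier2, Atf3, Dusp1 and Zfp36, out of 12393 genes that had a probe set (a group of short probes read together as 1 measurement) carrying a single gene symbol. Every probe set with 1 of these symbols was kept and read separately, which gave 13 probe sets, because Jun, Ccn1 and Btg2 each had 2. Probe sets were picked by gene name alone, but the 10 genes were chosen with earlier results of these data known.

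Arrays are numbered within their group as in the labels. Of the 9 arrays, 2 held RNA of wild-type 129/Sv mice, 4 of wild-type B6 mice and 3 of Cyp2g1-null mice, which lack a nasal cytochrome P450. All mice were males of 2 to 3 months, and the null line was of mixed 129/Sv and C57BL/6 background, for which reason both strains were the controls. Each array was hybridised with RNA from the pooled glands of 10 mice, so the 9 arrays are 9 pools and the spread between arrays is a spread between pools. The sources used here do not say how the null allele was made, nor when the glands of each pool were taken. Values are signals (probe brightness on a linear scale, in arbitrary units), and their precision is limited by the small number of arrays.

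Immediate early genes are switched on within minutes of a stimulus, without the need for new protein, and their short-lived transcripts fall again soon afterwards. Signals from growth factor receptors, stress kinases and cyclic AMP reach factors already bound at their promoters, and the first products are transcription factors (the AP-1 proteins and Egr1), a secreted matrix protein (Ccn1) and feedback proteins that end the response (Dusp1, Zfp36, Btg2). The same genes are known to respond to handling and dissection of tissue.

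The bases before the transcription start are shown for 5 members, because known binding motifs of inducible factors, or a TATA box, occurred there. The sequences were taken from RefSeq on build GRCm38.p6, whose table held 8 of the 10 members, and each runs 5′ to 3′ on the gene's own strand over the 250 bases before the start. Capitals mark matches, on either strand, to the CArG box bound by serum response factor, the cyclic AMP response element (TGACGTCA), the EGR site (GCGNGGGCG), the AP-1 site (TGANTCA) or the TATA box (TATAAA).
Fos, chr12:85473640-85473889, plus strand, with a TATA box: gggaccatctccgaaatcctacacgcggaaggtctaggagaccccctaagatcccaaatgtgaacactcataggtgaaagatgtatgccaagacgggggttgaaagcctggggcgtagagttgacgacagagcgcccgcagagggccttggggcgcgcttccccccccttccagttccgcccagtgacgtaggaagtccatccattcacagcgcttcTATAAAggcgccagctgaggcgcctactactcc
Ccn1, chr3:145649986-145650235, minus strand, with a TATA box: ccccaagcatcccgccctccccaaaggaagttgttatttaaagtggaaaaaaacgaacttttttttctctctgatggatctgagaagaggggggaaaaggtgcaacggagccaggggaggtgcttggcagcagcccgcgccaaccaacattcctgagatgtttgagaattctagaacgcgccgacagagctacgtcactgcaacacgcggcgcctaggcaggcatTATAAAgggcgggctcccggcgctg
Btg2, chr1:134079156-134079405, minus strand, with a cyclic AMP response element and then an EGR site: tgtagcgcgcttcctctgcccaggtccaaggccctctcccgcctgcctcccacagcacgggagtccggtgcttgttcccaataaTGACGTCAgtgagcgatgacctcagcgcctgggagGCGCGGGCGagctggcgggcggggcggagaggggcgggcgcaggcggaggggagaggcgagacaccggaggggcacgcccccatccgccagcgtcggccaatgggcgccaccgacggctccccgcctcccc
Dusp1, chr17:26508473-26508722, minus strand, with a cyclic AMP response element: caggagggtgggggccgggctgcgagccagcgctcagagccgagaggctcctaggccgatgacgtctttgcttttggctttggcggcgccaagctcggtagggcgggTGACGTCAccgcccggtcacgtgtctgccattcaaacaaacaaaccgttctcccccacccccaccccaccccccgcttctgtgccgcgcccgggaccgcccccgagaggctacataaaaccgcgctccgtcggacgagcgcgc
Zfp36, chr7:28379229-28379478, minus strand, with an EGR site and then a CArG box: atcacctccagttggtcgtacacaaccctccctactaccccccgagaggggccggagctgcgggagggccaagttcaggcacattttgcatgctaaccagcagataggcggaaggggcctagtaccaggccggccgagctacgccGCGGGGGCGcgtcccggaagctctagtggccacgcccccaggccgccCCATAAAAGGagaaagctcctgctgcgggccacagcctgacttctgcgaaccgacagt

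The motif search covered the same 250 bases and the first 50 bases of the transcript. Of the 8 member promoters, 1 held a CArG box, against 1.63% of 32851 mouse promoters, and 2 held a cyclic AMP response element, against 1.79%. An EGR site occurred in 2 of 8 (5.55% of all promoters), a TATA box in 3 of 8 (13.6%) and an AP-1 site in 0 of 8 (7.81%). The third TATA match, that of Junb, began at the start site itself and not before it. The motifs did not overlap each other in the sequences shown. These are matches of letters in a short window and say nothing of binding in the gland.

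Fos, whose protein pairs with Jun proteins to form AP-1, had a signal of 636.9 and 1228.8 on the 2 129/Sv arrays, of 417.7, 684.3, 841.5 and 804.5 on the 4 B6 arrays, and of 1122.7, 8513.1 and 1036.7 on the null arrays. Null array 2 stood 6.93-fold above the next array, while null arrays 1 and 3 lay between the 2 129/Sv arrays and above all 4 B6 arrays. The group means were 933 ± 419 (SD, n = 2), 687 ± 192 (SD, n = 4) and 3558 ± 4292 (SD, n = 3), so the SD of the null group exceeded its mean. Against the mean of both strains the log2 fold change was 1.47 (SE 0.527), and it did not pass (limma with Benjamini-Hochberg adjustment, adjusted p = 0.247). Without null array 2 it was 0.48 (SE 0.295, adjusted p = 0.701), and the mean of null arrays 1 and 3 was 1.40-fold the wild-type mean.

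Jun, the partner of Fos in AP-1, was read by both of its probe sets, which put all 3 null arrays above all 6 wild-type arrays. Probe set 1448694_at gave 1663.1 and 1524.5 on the 129/Sv arrays, 2011.0, 1542.2, 2395.9 and 1749.9 on the B6 arrays, and 2573.9, 3990.6 and 2687.5 on the null arrays. Probe set 1417409_at gave 1591.6 and 1817.5 on the 129/Sv arrays, 976.7, 844.8, 1850.6 and 999.6 on the B6 arrays, and 2454.7, 3125.0 and 1862.9 on the null arrays. Null array 2 was again the highest at both, by 1.48-fold and 1.27-fold over the next array, and at the second probe set null array 3 was only just above B6 array 3.

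Jun rose in the null glands in 3 of the 6 tests of its probe sets against the controls. Probe set 1448694_at rose relative to both strains' mean (log2 fold change 0.79, SE 0.164, adjusted p = 0.0329) and relative to 129/Sv (0.92, SE 0.207, adjusted p = 0.036), and its log2 fold change over B6 was 0.67 (SE 0.173, adjusted p = 0.0645). Probe set 1417409_at rose against B6 (1.11, SE 0.236, adjusted p = 0.0244), while its value was 0.81 (SE 0.223, adjusted p = 0.114) for the mean of both strains and 0.51 (SE 0.282, adjusted p = 0.535) for 129/Sv. The call of 1448694_at against the mean of both strains was lost without either 129/Sv array, B6 array 4 or any null array (log2 fold change from 0.59 to 0.91, adjusted p from 0.0517 to 0.184), and that against 129/Sv without either 129/Sv array or null array 2 or 3 (0.72 to 1.00, adjusted p from 0.0631 to 0.276). The lowest of each was the fit without null array 2. Leaving out a 129/Sv array leaves 1 array in that group, which is then assumed to vary like the other groups, here and below. The call of 1417409_at against B6 was lost without B6 array 2 or 4 or null array 1 or 2 (0.93 to 1.11, adjusted p from 0.0622 to 0.138).

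Junb, an AP-1 protein that is a weaker activator than Jun, showed no such rise. Its signals were 647.6 and 755.3 on the 129/Sv arrays, 517.9, 689.0, 616.2 and 665.1 on the B6 arrays, and 633.7, 1326.9 and 359.6 on the null arrays, so the null group held both the highest and the lowest of the 9 arrays. The log2 fold change against the mean of both strains was 0.03 (SE 0.311, adjusted p = 0.979), it was -0.01 with equal array medians, and without null array 2 it was -0.45 (adjusted p = 0.685). Atf3, a stress-induced repressor of the same protein family, was above the array median on 1 array only and was not tested. It gave 407.4 and 53.4 on the 129/Sv arrays, 190.0, 480.7, 436.1 and 137.0 on the B6 arrays, and 382.4, 666.7 and 59.8 on the null arrays, a spread within each group that covered most of the whole range.

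Egr1, a zinc finger activator induced through serum response factor, resembled Fos on null array 2. Signals were 1694.2 and 1522.7 on the 129/Sv arrays, 1069.2, 1253.2, 1081.5 and 973.2 on the B6 arrays, and 1777.1, 9407.0 and 1839.1 on the null arrays. All null arrays lay above all wild-type arrays, null arrays 1 and 3 by a small margin over the highest 129/Sv array and null array 2 by 5.12-fold over the next array. Set against the mean of both strains, Egr1 had a log2 fold change of 1.24 (SE 0.395, adjusted p = 0.191). Set against B6 alone it had 1.51 (SE 0.418, adjusted p = 0.0835) and against 129/Sv alone 0.96 (SE 0.499, adjusted p = 0.495), and none of the 3 passed. Leaving out null array 2 lowered the estimate against B6 to 0.72 but also its SE to 0.153, and that difference then passed (adjusted p = 0.0374).

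**Figure D1:**
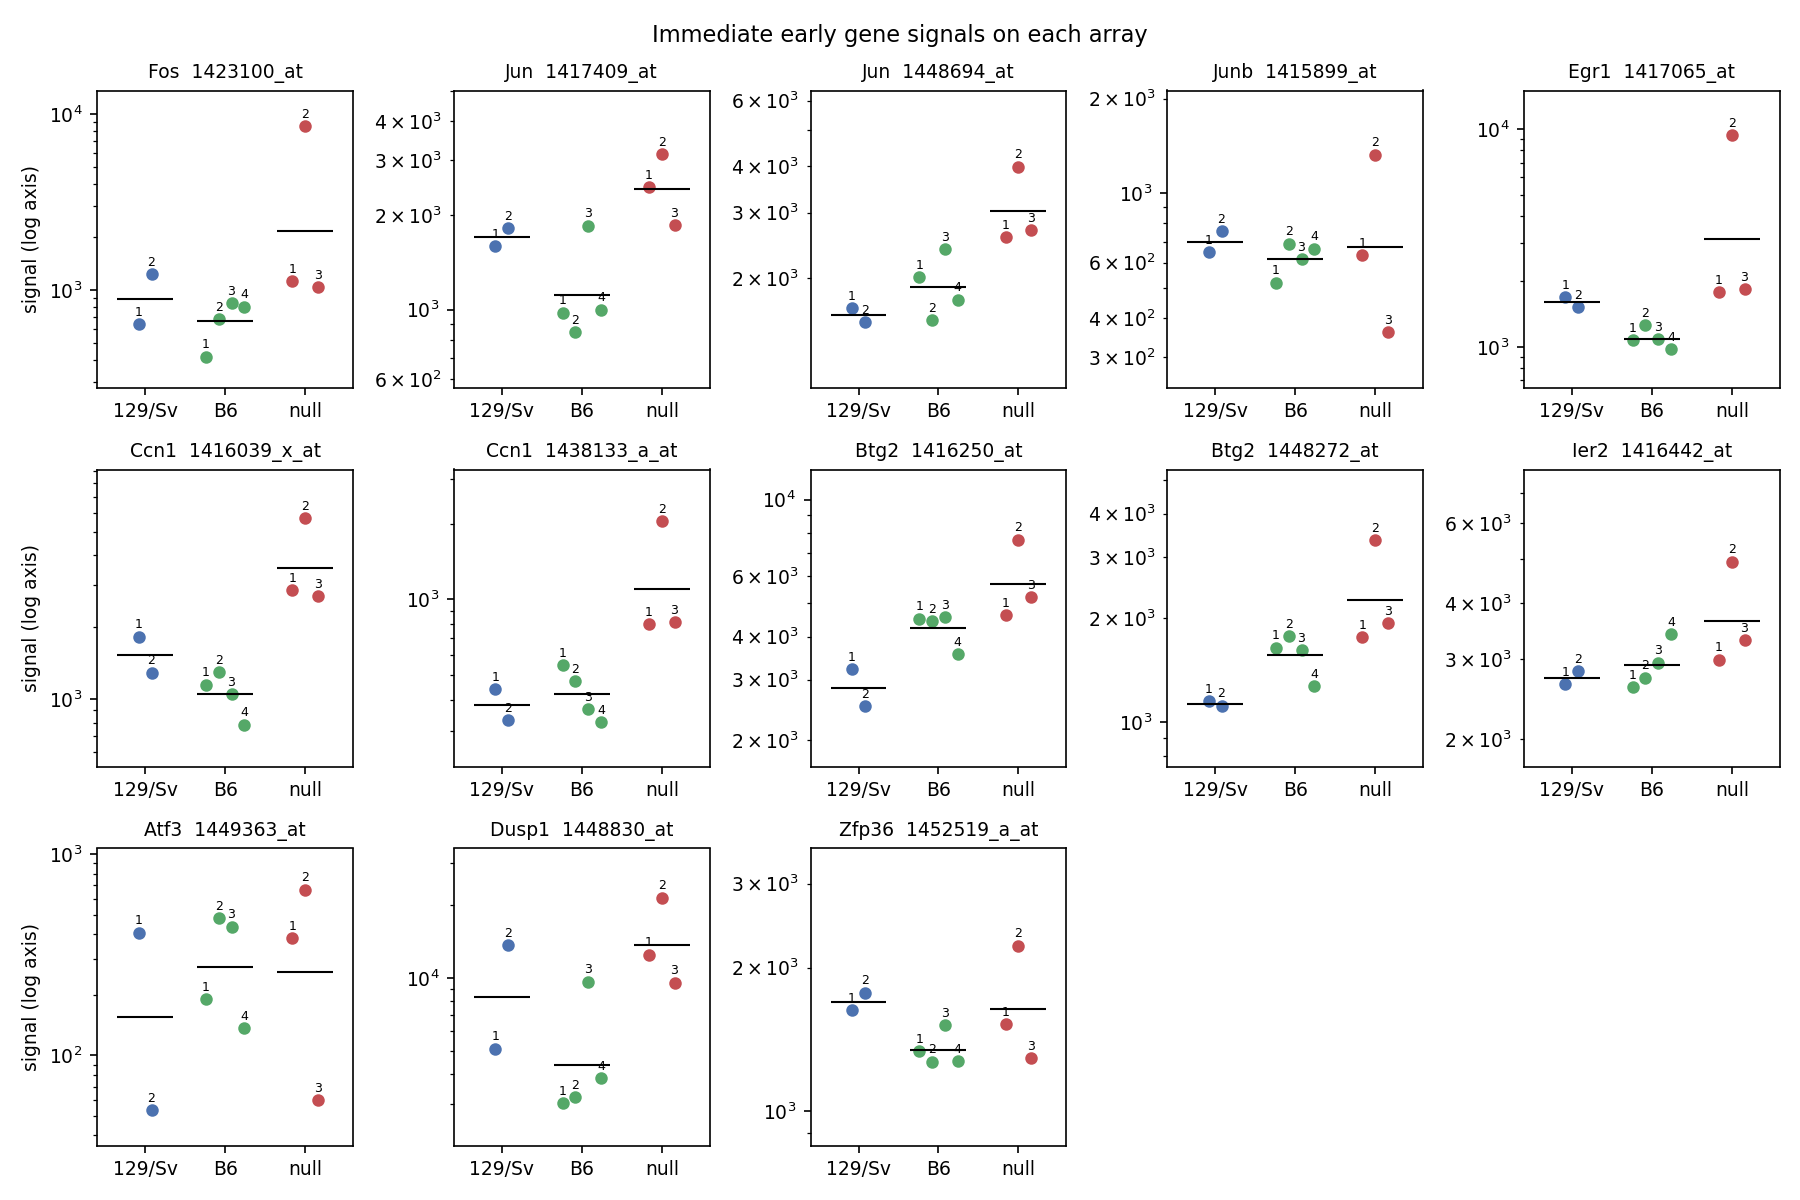
Signal of the 13 probe sets on the 9 arrays, with a panel for each probe set and the signal in arbitrary units on a log axis. Points are arrays, labelled by replicate number, and bars are group means taken on the log2(signal + 16) scale. Null array 2 is the highest point in all 13 panels, and in the Fos and Egr1 panels it stands 6.93-fold and 5.12-fold above the next array.

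Ccn1, a secreted matrix protein that binds integrins, had the clearest group difference of the members. At probe set 1416039_x_at the signals were 1826.4 and 1294.1 on the 129/Sv arrays, 1153.0, 1297.4, 1049.2 and 784.8 on the B6 arrays, and 2860.3, 5702.6 and 2690.8 on the null arrays. All null arrays were above all wild-type arrays, and the mean of null arrays 1 and 3 alone was 2.25-fold the wild-type mean. At probe set 1438133_a_at the signals were 440.4 and 330.7 on the 129/Sv arrays, 548.8, 472.1, 367.0 and 324.5 on the B6 arrays, and 795.6, 2054.0 and 812.1 on the null arrays, with the same separation and a ratio of 1.94 for null arrays 1 and 3. The suffix _x_at marks a probe set in which some probes also match other sequences, and 1438133_a_at was above the array median on the 3 null arrays and 1 wild-type array. The filter asked for 2 arrays, so 1438133_a_at was tested only through the group in which it was high. Its tests are given as a description, and it is counted apart from the other 11 probe sets.

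Ccn1 at 1416039_x_at rose in the null glands against the mean of both strains, with a log2 fold change of 1.46 (SE 0.229, adjusted p = 0.00564), and against B6, by 1.73 (SE 0.243, adjusted p = 0.00151). The value against 129/Sv, 1.19 (SE 0.29, adjusted p = 0.0528), missed the threshold. The values of 1438133_a_at were 1.42 (SE 0.309, adjusted p = 0.0421), 1.36 (SE 0.327, adjusted p = 0.0479) and 1.49 (SE 0.391, adjusted p = 0.0773) in the same order. Both calls of 1416039_x_at held in all 9 fits that left out 1 array, and without null array 2 the values were 1.11 (SE 0.196, adjusted p = 0.0229) for the mean of both strains and 1.38 (SE 0.204, adjusted p = 0.00422) for B6. At 1438133_a_at both calls held only in the fit without B6 array 1 and were lost without any of the other 8 arrays (adjusted p from 0.0548 to 0.27 and from 0.0563 to 0.264). The log2 fold changes in those fits ran from 0.98 to 1.65 and from 0.91 to 1.59, and the lowest of each was the fit without null array 2.

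Btg2, an antiproliferative protein that promotes mRNA deadenylation, differed mainly from 129/Sv. Probe set 1416250_at gave 3221.9 and 2516.3 on the 129/Sv arrays, 4512.2, 4438.2, 4559.1 and 3567.2 on the B6 arrays, and 4611.5, 7648.3 and 5208.8 on the null arrays. Probe set 1448272_at gave 1148.9 and 1117.8 on the 129/Sv arrays, 1641.3, 1774.7, 1611.8 and 1273.2 on the B6 arrays, and 1764.3, 3348.9 and 1930.0 on the null arrays. At both, the 129/Sv arrays were the lowest and null array 2 the highest. Null array 1 lay just above the highest B6 array at the first probe set and just below it at the second.

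Against 129/Sv, Btg2 rose at both probe sets, by 0.99 (1416250_at, SE 0.193, adjusted p = 0.0139) and 0.98 (1448272_at, SE 0.233, adjusted p = 0.047) on the log2 scale. Against the mean of both strains it rose at 1416250_at (0.71, SE 0.152, adjusted p = 0.0413), while 1448272_at had a value of 0.75 (SE 0.184, adjusted p = 0.0704). Against B6 the values were 0.42 (SE 0.161, adjusted p = 0.24) and 0.52 (SE 0.195, adjusted p = 0.226). The call of 1416250_at against 129/Sv held in 8 of 9 fits, among them that without null array 2 (0.78, SE 0.166, adjusted p = 0.0402), and was lost without 129/Sv array 2 (0.82, adjusted p = 0.22). Its call against the mean of both strains was lost without 129/Sv array 2, B6 array 2, 3 or 4, or null array 2 or 3 (0.49 to 0.77, adjusted p from 0.0556 to 0.2). The call of 1448272_at against 129/Sv was lost without either 129/Sv array, B6 array 2 or 3, or null array 2 or 3 (adjusted p from 0.0567 to 0.284). Its log2 fold change was then 1.00 and 0.96 without the 129/Sv arrays, 0.98 without the B6 arrays, 1.09 without null array 3 and 0.70 without null array 2.

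Dusp1, a phosphatase that switches off the MAP kinases, varied widely within every group. Its signals were 5094.8 and 13675.6 on the 129/Sv arrays, 3031.9, 3213.7, 9647.3 and 3840.5 on the B6 arrays, and 12488.1, 21432.6 and 9536.5 on the null arrays. 129/Sv array 2 lay above null arrays 1 and 3, and B6 array 3 above null array 3. It rose against B6 (1.64, SE 0.395, adjusted p = 0.0476), with 1.18 (SE 0.373, adjusted p = 0.187) relative to both strains' mean and 0.71 (SE 0.472, adjusted p = 0.634) relative to 129/Sv. The call against B6 was lost without B6 array 1, 2 or 4 or any null array (log2 fold change from 1.32 to 1.90, adjusted p from 0.0571 to 0.226), with the lowest value in the fit without null array 2.

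Zfp36, which binds AU-rich elements and speeds the decay of cytokine and early transcripts, showed no separation of the null arrays from the controls. Its signals were 1625.2 and 1770.8 on the 129/Sv arrays, 1334.5, 1267.7, 1514.2 and 1270.5 on the B6 arrays, and 1519.7, 2222.4 and 1291.4 on the null arrays. Both 129/Sv arrays lay above all B6 arrays. The log2 fold change against the mean of both strains was 0.11 (SE 0.158, adjusted p = 0.84), and without null array 2 it was -0.11 (adjusted p = 0.898). Ier2, a nuclear protein of the same early class, gave 2643.6 and 2824.2 on the 129/Sv arrays, 2603.0, 2732.2, 2950.7 and 3406.7 on the B6 arrays, and 2995.9, 4935.0 and 3303.8 on the null arrays. Null array 2 was 1.45-fold above the next array, B6 array 4, which itself lay above the other null arrays, and the log2 fold change against the mean of both strains was 0.37 (SE 0.148, adjusted p = 0.322).

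Across the members, with Ccn1 at 1438133_a_at counted apart, 3 of 11 probe sets (Ccn1 at 1416039_x_at, Jun at 1448694_at and Btg2 at 1416250_at) rose against the mean of both strains, where 1.22% of all 12575 tested probe sets were called, 0.755% higher. Against B6, 3 of 11 rose (Ccn1 at 1416039_x_at, Jun at 1417409_at and Dusp1), with 2.18% of all probe sets called and 1.11% higher. Against 129/Sv, 3 of 11 rose (Jun at 1448694_at and Btg2 at both), with 2.04% called and 1.41% higher. No member fell in any of the 3 comparisons, in which 0.469%, 1.07% and 0.628% of all probe sets fell. The comparisons share the null arrays and are not independent. These counts, and those of array order below, are a description, because the members were chosen with earlier results of these data known. In none of the 12 was the call made against each strain at once (0.0954% of all probe sets), whereas at an unadjusted p under 0.05 against each strain 5 of all 12, Ccn1 at 1438133_a_at among them, and 2.51% of all probe sets met that condition.

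The median log2 fold change of the 11 was 0.79 against the mean of both strains, 0.67 against B6 and 0.92 against 129/Sv, and that of all tested probe sets was 0.01, 0.02 and 0.00. The estimates were positive for 11, 11 and 9 of 11 probe sets, and for 52.5%, 52.9% and 50.5% of all. Some members share a gene and all share the same 9 arrays, so they are not independent of each other.

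The values were read for a shift of the null group and for an excess on null array 2. The members did not all share a shift, and only null arrays 1 and 3 remain when null array 2 is set aside. For the shift, each array's signals were set against the median of the 6 wild-type arrays on the log2 scale. The median deviation of the 11 probe sets was 0.59, 1.22 and 0.47 on null arrays 1, 2 and 3, and it lay between -0.16 and 0.20 on the 6 wild-type arrays. The median over all tested probe sets was between -0.01 and 0.02 on every array. On null arrays 1 and 3, 10 and 9 of the 11 were above the wild-type median, against 3 to 8 on the wild-type arrays. The wild-type arrays set that median, so their own deviations and counts are centred by construction, and those of the null arrays are not. The median over all tested probe sets shows only that no array was shifted as a whole.

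**Figure D2:**
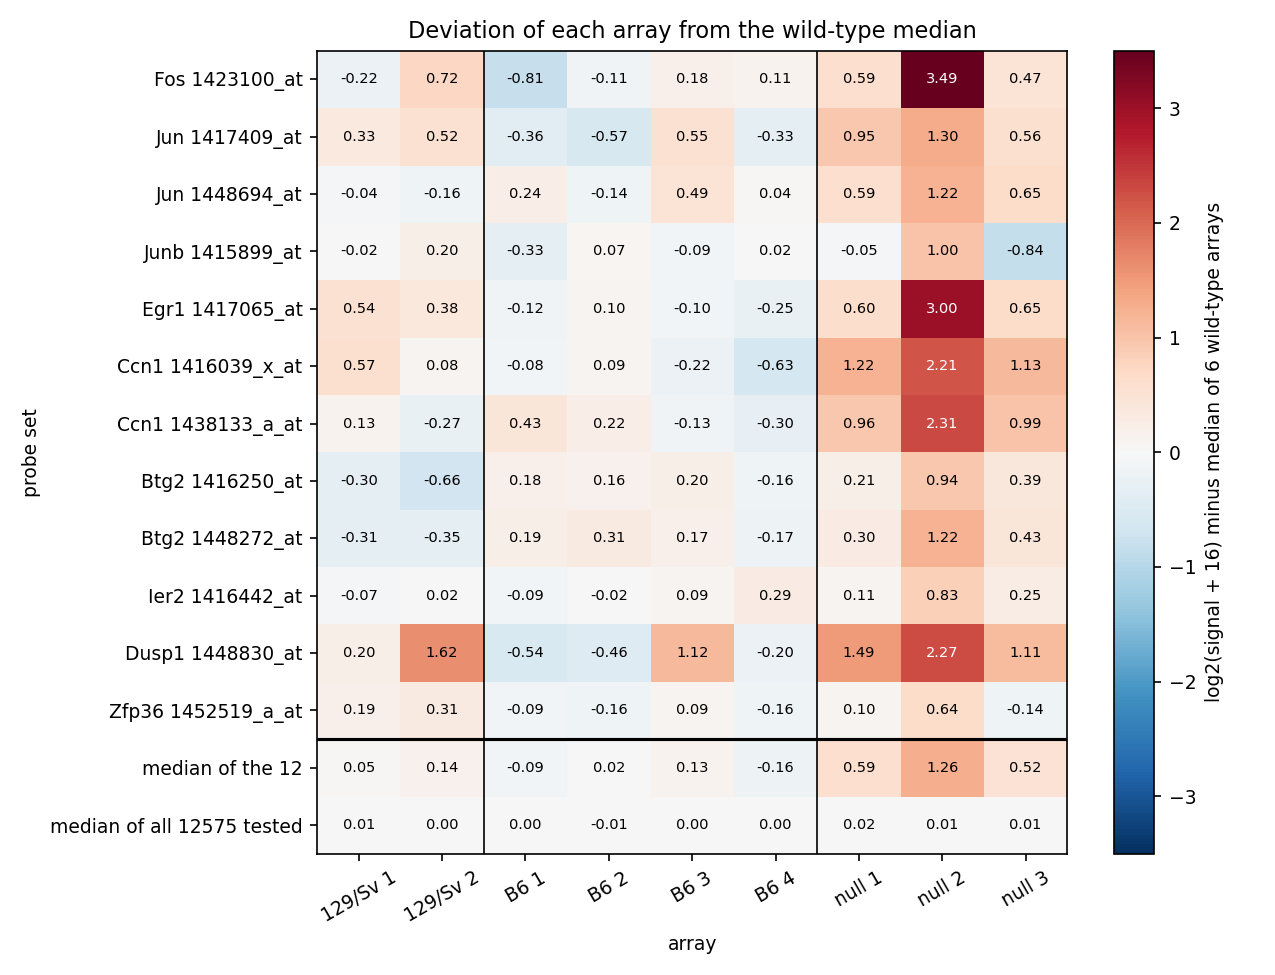
Deviation of each tested member probe set from the median of the 6 wild-type arrays, as a log2 difference shown by colour, with arrays in columns and probe sets in rows. The last rows give the median of all 12 probe sets, Ccn1 at 1438133_a_at included, and of all tested probe sets: the former is 0.59, 1.26 and 0.52 on the null arrays, and the latter stays between -0.01 and 0.02.

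All 3 null arrays lay above all 6 wild-type arrays for 5 of the 11 probe sets (both of Jun, Egr1, Ccn1 at 1416039_x_at, and Btg2 at 1416250_at), an order found for 2.9% of all tested probe sets. Null array 2 was the highest at each of the 11. Asking only null arrays 1 and 3 to lie above the wild type therefore gives the same 5 by construction. That order was found for 5.15% of all. The null arrays were all above the B6 arrays for 6 of 11 (7.51% of all) and all above the 129/Sv arrays for 7 of 11 (16.2% of all).

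For the excess, null array 2 was the highest of 9 arrays at 11 of the 11 probe sets, against 10.6% of all tested probe sets. It was also the highest at Ccn1 at 1438133_a_at, counted apart, and at Atf3. Its signal ranged from 1.26-fold (Zfp36) to 6.93-fold (Fos) above the next array, with a median of 1.57 without Ccn1 at 1438133_a_at. A margin of 2-fold or more over every other array was rare. It occurred for 2 of the 11 (Fos and Egr1), and for 4 of all 12575 probe sets (0.0318%). The third of these 4 was Ccn1 at 1438133_a_at, which was tested only through the null group. The fourth was Iglv1, an immunoglobulin light chain segment of plasma cells, with 4650.6 on null array 2 and 661.9 to 2115.6 on the other arrays. Each of the other 8 arrays exceeded all others by that margin at 0 to 6 probe sets, none of them a member.

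**Figure D3:**
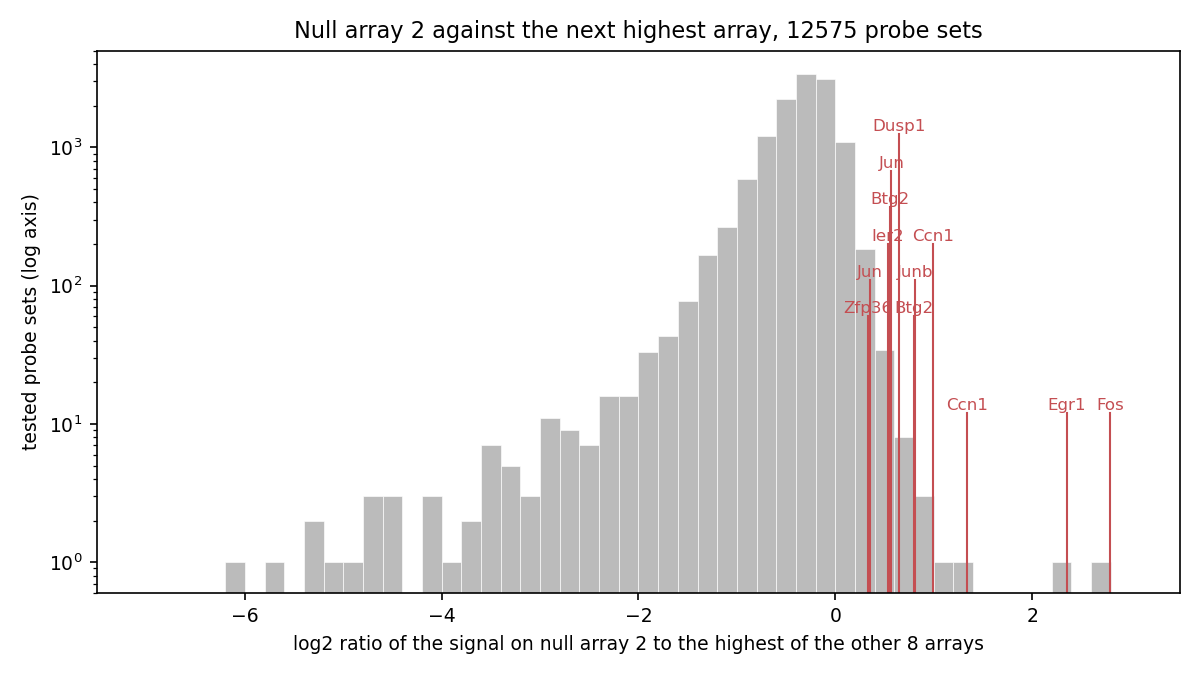
Distribution over the 12575 tested probe sets of the log2 ratio of the signal on null array 2 to the highest signal on the other 8 arrays, with the number of probe sets on a log axis. The marked member probe sets all lie to the right of 0, and Fos (6.93-fold) and Egr1 (5.12-fold) lie at the far right end.

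Null array 2 did not stand apart as a whole. Its correlation with the other arrays over all tested probe sets, on the log2 scale, was between 0.946 and 0.972, and the range over all pairs of arrays was 0.931 to 0.972. Among the cell type marker lists, its summed signal lay outside the range of the other 8 arrays for endothelium (3706.5, against 3928.6 to 5937 on the wild-type arrays), for fibroblasts (65451.2, against 66157.2 to 95110.8) and for macrophages and neutrophils (41297.1, against 27926.1 to 40294.1). Most of the last sum was Lyz2 (36646.1 on null array 2). Of the 6 genes in that sum, null array 2 was the highest at 2 (Lyz2 and S100a8) and the lowest at Csf1r (1729.3). The part of these lists in the result was not tested.

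Without null array 2, the member counts fell to 1 of 11 against the mean of both strains (Ccn1 at 1416039_x_at), with 0.521% of all 12481 probe sets called then and 0.304% higher. Against B6 they fell to 2 of 11 (Ccn1 at 1416039_x_at and Egr1), with 1.32% of all called and 0.625% higher. Against 129/Sv they fell to 1 of 11 (Btg2 at 1416250_at), with 1.36% of all called and 0.937% higher. The median log2 fold change of the 11 was then 0.48, 0.47 and 0.33, and 9, 10 and 9 of 11 estimates were positive.

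**Figure D4:**
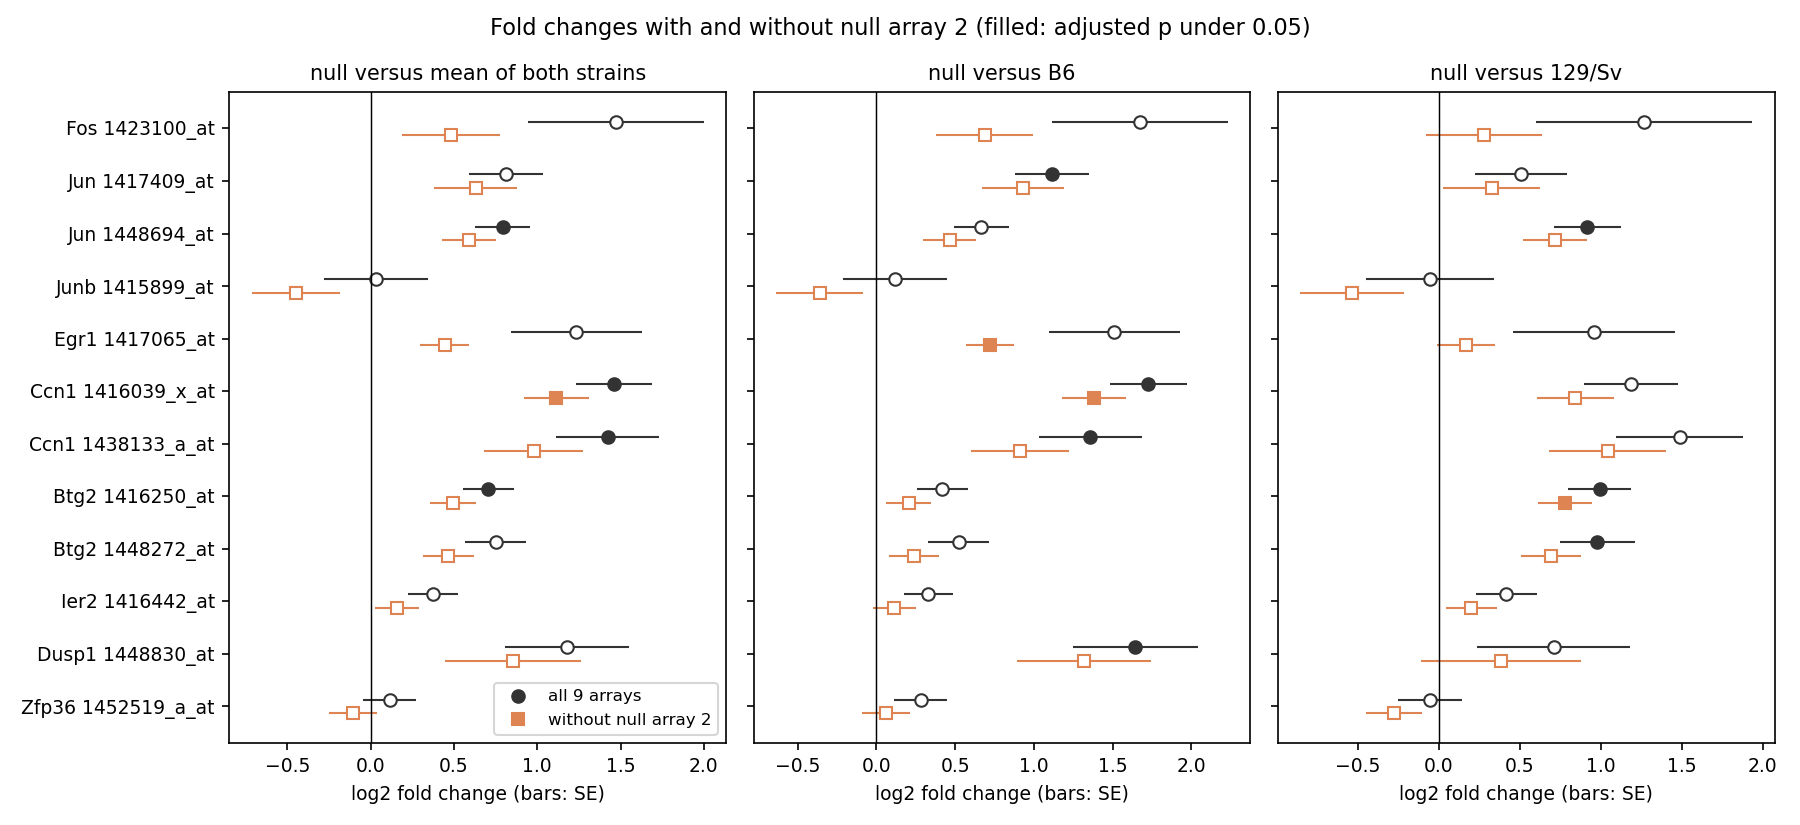
Log2 fold change of the 12 tested member probe sets, null against the mean of both strains, B6 and 129/Sv, with all 9 arrays and without null array 2. Bars are standard errors, and filled points passed an adjusted p of 0.05. The Fos estimate against the mean of both strains moves from 1.47 to 0.48, and Ccn1 at 1416039_x_at from 1.46 to 1.11.

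The strains themselves were compared because the null line carries both backgrounds. Between B6 and 129/Sv, 0 of 12 member probe sets passed by limma, where 5.19% of all were called (2.92% higher and 2.27% lower in B6), and 2 of 12 had an unadjusted p under 0.05 (17.4% of all). The estimates, B6 over 129/Sv, ran from -0.93 (Dusp1, SE 0.448, adjusted p = 0.304) to 0.57 (Btg2 at 1416250_at, SE 0.183, adjusted p = 0.0967). Btg2 at that probe set passed without null array 2 (adjusted p = 0.0381), which narrowed the shared spread, and Jun at 1417409_at was called lower in B6 without B6 array 3 (-0.85, adjusted p = 0.0301, against -0.61 and 0.258 with it). The 129/Sv mean was above that of B6 for 7 of 12.

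Other genes of the response were read from lists, given against the mean of both strains. Of 24 other immediate early transcription factors, 15 were tested, and 0 of their 19 probe sets were called by limma, with 14 positive and a median log2 fold change of 0.16. Of all tested probe sets, 1.22% were called in that comparison and 52.5% were positive, so a count of 0 in a short list says little. Nr4a1, an orphan nuclear receptor, had 11751 and 14230.5 on the 129/Sv arrays, 10710.8 to 13503.4 on the B6 arrays, and 11519.5, 19581.7 and 13564.8 on the null arrays, with null array 2 highest and a log2 fold change of 0.25 (SE 0.143, adjusted p = 0.529). The other genes of that list with the strongest signals were Jund, Nr4a2, Cebpb and Bhlhe40, of which none was called in any of the comparisons of null with control. Nfil3, a basic leucine zipper repressor, rose against 129/Sv (1.57, SE 0.289, adjusted p = 0.00966), with 0.13 (SE 0.241, adjusted p = 0.855) against B6.

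Of 38 other early effectors and feedback regulators, 23 genes were tested with 36 probe sets, and 1 rose (0.755% of all tested probe sets did), with a median of 0.09. It was Sphk1, the kinase that makes sphingosine 1-phosphate, with 338.6 and 310.9 on the 129/Sv arrays, 972.1, 719.3, 808.0 and 393.0 on the B6 arrays, and 2230.1, 1844.2 and 1397.0 on the null arrays. All null arrays were above all wild-type arrays there, null array 1 was the highest, and Sphk1 rose by 1.88 on the log2 scale (SE 0.253, adjusted p = 0.00149). The rise held relative to B6 (1.36, SE 0.268, adjusted p = 0.0147) and relative to 129/Sv alike (2.41, SE 0.32, adjusted p = 0.000699). The genes of that list with the strongest signals, among them Nfkbia, Zfp36l1, Mcl1, Btg1 and Tob1, were not called.

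Of 24 upstream kinases and constitutive factors, 14 were tested, and 0 of 25 probe sets were called, with a median of -0.09. Of all tested probe sets 1.22% were called, so the counts of 0 called here and among the heat shock genes say little. Null array 2 was the highest at 0 of those 25, at 6 of the 19 of the transcription factors, at 7 of the 36 of the effectors and at 7 of the 29 of the heat shock and stress genes. It was the highest at 10.6% of all tested probe sets. The heat shock list, whose products refold proteins in stressed tissue, had 0 of 29 probe sets called and a median of 0.12. Hsph1 rose against 129/Sv at 1423566_a_at (0.74, SE 0.163, adjusted p = 0.033). Its other probe set, 1425993_a_at, was not called there (0.50, SE 0.176, adjusted p = 0.221). No probe set of these lists reached a margin of 2-fold over every other array on null array 2.

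**Figure D5:**
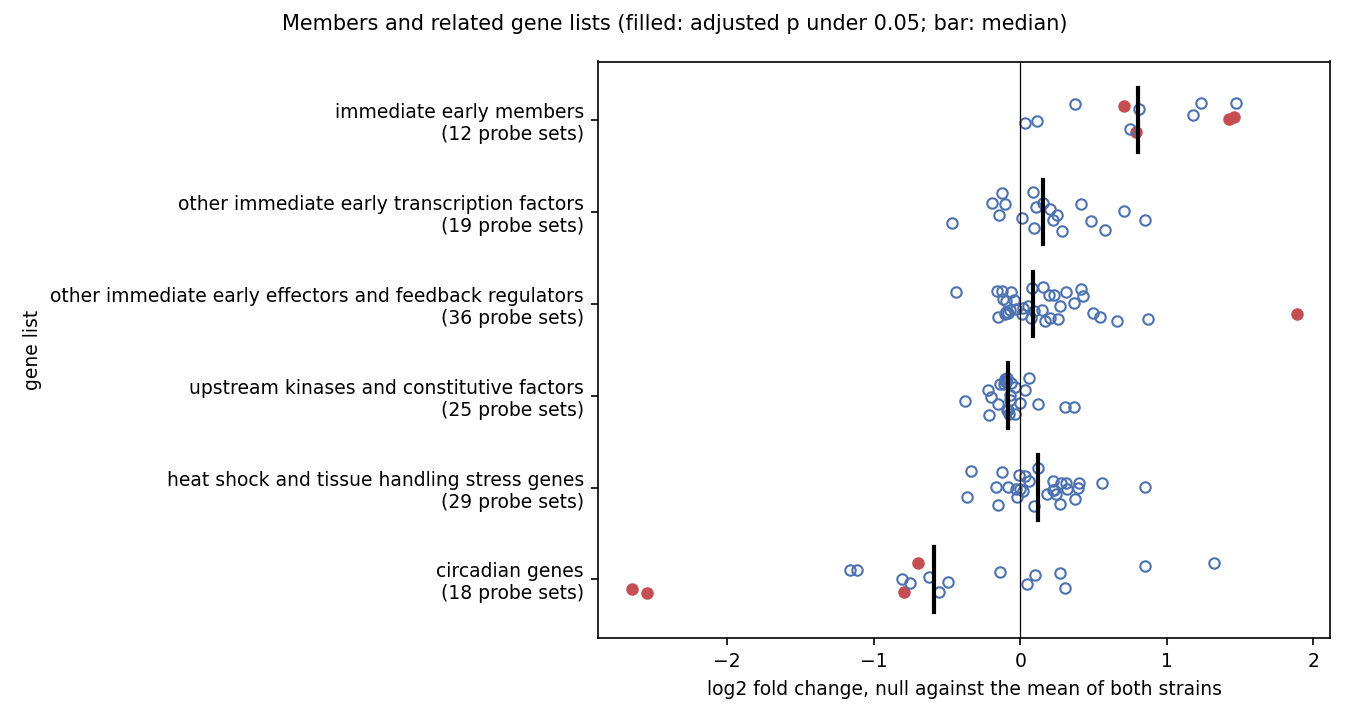
Log2 fold change, null against the mean of both strains, of each tested probe set of the members and of the 5 other lists, with a bar at each list's median. The medians are 0.80 for the 12 member probe sets, Ccn1 at 1438133_a_at included, 0.16 for other transcription factors, 0.09 for effectors, -0.09 for upstream factors, 0.12 for heat shock genes and -0.59 for circadian genes.

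Circadian genes were read because their level depends on the hour at which tissue is taken. Of 18 probe sets of 13 genes, 4 fell against the mean of both strains (both of Dbp, 1 of Tef and 1 of Nr1d2), while 6 of the 18 estimates were positive, and the list median was -0.59. Of all tested probe sets, 0.469% fell in that comparison. Dbp, an output gene of the clock, gave 4361.8 and 6508.2 on the 129/Sv arrays, 3122.6, 1750.5, 1102.2 and 3743.0 on the B6 arrays, and 568.3, 537.5 and 603.1 on the null arrays (log2 fold change -2.55, SE 0.3, adjusted p = 0.000416, at 1418174_at). All null arrays lay below all wild-type arrays there, close to each other. Against B6, 2 of the 18 probe sets fell (1.07% of all did). Against 129/Sv 5 fell (0.628% of all) and 2 rose (Npas2 and Nfil3, with 1.41% of all). The time of dissection is not in the labels, and the part of these genes in the result was not tested.

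Cell type markers and RNA quality were read beside these results. The array held 7 of the 8 secretory markers of the gland and 6 were tested, with Obp1a between 112206 and 150146 on every array. Against the mean of both strains 3 of 6 tested markers were called (1.22% of all tested probe sets were), Scgb1b27 and Scgb2b27 higher and Agr2 lower. The summed signal of the 7 was 212838 to 358780 on the wild-type and 359625 to 464818 on the null arrays. The sums thus almost touched. Car6, part of them and not called, ran from 387.5 to 66481.3 on the wild-type and from 29312.4 to 70057.5 on the null arrays. Lpo, the lactoperoxidase gene, was low on every array (13.1 to 151.6). The 8 ciliated cell markers, 6 of them on the array, summed to 11018.1 to 14573.5 on the wild-type and 17910 to 18863.4 on the null arrays. Of the 6, 3 rose against the mean of both strains (0.755% of all did). Olfactory neuron, endothelial, fibroblast, smooth muscle, skeletal muscle, macrophage, lymphocyte and erythroid markers had 0 called among those tested (none of skeletal muscle was tested), and their sums overlapped between wild type and null. In pooled tissue, more cells of a type and more RNA per cell cannot be told apart, and the part of these markers in the result was not tested. The ratio of 3′ to 5′ signal for Gapdh, which rises as RNA degrades, was 1.11 to 1.15 on the null arrays and 0.966 to 1.19 on the wild-type arrays. For beta-actin the ratio was higher, 2.70 to 2.81 on the null arrays and 2.59 to 2.90 on the wild-type arrays.

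The targeted gene, Cyp2g1, checked the labels. Its signal was 207.5 and 981.2 on the 129/Sv arrays, 748.2 to 5916.8 on the B6 arrays, and 55.7, 140.6 and 201.1 on the null arrays, so that all null arrays were below all wild-type arrays although null array 3 and 129/Sv array 1 were close. The log2 fold change over B6 was -4.07 (SE 0.62, adjusted p = 0.00268), a fall that passed, and over 129/Sv it was -1.81 (SE 0.741, adjusted p = 0.325). The sources used here do not say whether its probes lie in the deleted part.

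The probe sets most like Fos and like Ccn1 (1416039_x_at) were sought among 11591 probe sets of other genes, by Pearson's r over the 9 arrays, as a description. For Fos they were Vps29 (r = 0.926), Nr4a1 (0.911), Trmt10a (0.909), Tcf12 (0.873), Eya2 (0.87) and Itgb1 (0.851). Without null array 2 these values were 0.574, 0.656, 0.712, 0.773, 0.552 and 0.95, lower for all but Itgb1. For Ccn1 they were Smarcc1 (0.954), Wsb1 (0.939), Ints9 (0.938), Mfsd1 (0.935), Prpf31 (0.933) and Pdcd6ip (0.931). Without null array 2 they were 0.977, 0.876, 0.863, 0.87, 0.951 and 0.96, all of them at or above 0.863. None of these 12 genes was called against the mean of both strains, and the points share 9 arrays, 3 of them null.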

How the data were processed

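Total RNA of pooled lateral nasal glands was hybridised, as biotinylated cRNA, to 1-colour Affymetrix arrays per the labels' protocols. The authors deposited linear intensity values, 1 signal per probe set and array, and per the submitters' processing notes used MAS5 (version not given in the sources used here). With the outer 2% of each tail removed, all array means were 1500.6, so the arrays share a scale, and medians ran from 522.7 to 552.75. No detection calls and no array dates were used, so low signals have no detection limit here and no batch could be tested. Of 22690 probe sets, 64 controls were left out. Platform symbols named 20380 probe sets with 1 gene, 691 with several and 1555 with none, and all 10 members matched a RefSeq gene ID.

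Values were taken as log2(signal + 16), which understates changes of low signals, with no further normalization. Probe sets above the array median on at least 2 arrays (12575) were fitted in limma 3.58.1 (R 4.3.3) with 1 mean per group over all 9 arrays, eBayes with a trend, and Benjamini-Hochberg adjustment over all of them. A call is an adjusted p under 0.05. The arrays are pools that the labels list as separate samples, and p-values measure the spread between pools. The test was checked on simulated data in which each probe set varied independently. It recovered 82%, 78% and 68% of 2-fold rises in the null against the mean of both strains, B6 and 129/Sv. There were 8, 8 and 6 false calls. An excess shared by many genes on 1 array was not simulated, so the check does not cover it. Alternatives covered quantile scaling, equal medians, pseudocounts of 1 and 64, no filter, a filter at the 75th percentile, 1 probe set per gene, array weights, no trend, a replicate block, other groupings of the controls and leaving out each array. The members and lists were chosen with earlier results of these data known. Named are all member probe sets, list genes called in any null comparison or among the 6 of highest signal in their list (a selection is printed), and the 6 probe sets most like Fos and Ccn1. Summaries and figures used Python 3.11.15 with pandas 2.3.3 and matplotlib 3.10.9.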

Additional observations from a re-analysis of the deposited data

Results flagged for a closer look

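In groups of 4 arrays, the gap between the outermost array and its neighbour, as a share of the whole range of the group, was set against the critical value of Dixon's test. Chance alone exceeds it in about 5% of groups. Only the B6 group has 4 arrays, and 3 of the 13 member probe sets exceeded it, as did 5.14% of all 12575 tested probe sets. The 13 share the same 4 arrays, and some share a gene, so whether 3 of 13 is more than chance gives was not tested. Jun at 1417409_at had a signal of 1850.6 on B6 array 3, far above the other B6 arrays. Dusp1 had 9647.3 on the same array, also far above. Btg2 at 1416250_at had 3567.2 on B6 array 4, far below. The gaps of the members were taken on the linear signals and not on the log2 scale of the fits, on which high arrays stand out less. On that scale the B6 arrays, in order, had 9.96, 9.75, 10.87 and 9.99 for Jun at 1417409_at. Dusp1 had 11.57, 11.66, 13.24 and 11.91. With these values the gaps of Jun and Dusp1 fall short of the critical value. Btg2 at 1416250_at, with 12.14, 12.12, 12.16 and 11.81, still exceeds it. Groups of 2 and 3 arrays were not tested in this way, so null array 2 was not open to it.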

How the results depend on the processing

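The number of member probe sets called, out of all 12 tested and so with Ccn1 at 1438133_a_at, moved with the processing. Against both strains' mean it was 4, and it was 2 with no filter, 0 without the eBayes trend, 1 with the replicate block, 0 when the 6 wild-type arrays formed 1 group, and 1 to 4 when 1 array was left out. Against B6 it was 4, and it was 2 with quantile normalization, 2 with no filter, 2 with 1 probe set per gene, 1 without the trend, 1 with the replicate block, and 1 to 4 with 1 array left out. Against 129/Sv it was 3, and it was 1 with no filter, 0 without the trend, 3 with the replicate block, and 0 to 4 with 1 array left out. Between B6 and 129/Sv it was 0, and 0 to 1 with 1 array left out. Correlations of deviations over all tested probe sets were -0.075 to 0.0963 between equal replicate numbers and -0.1202 to 0.1202 between unequal ones. They showed no pairing of the arrays by number. They cannot exclude one that touches few genes, and the deviations of the 2 129/Sv arrays mirror each other by construction.

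Calls over all probe sets, against the mean of both strains, were 154, with 96 at 1 probe set per gene, 59 without the trend, 291 with array weights, 4 when the 6 wild-type arrays formed 1 group, and 58 to 292 with 1 array left out. Against B6 they were 274, with 154 without the trend, 490 with array weights, and 153 to 611. Against 129/Sv they were 256, with 165 at 1 probe set per gene, 166 without the trend, and 127 to 326. Between the strains they were 653, with 407 at 1 probe set per gene, and 341 to 863. The causes were not tested, beyond the fewer probe sets tested at 1 per gene.

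Ccn1 at 1416039_x_at was called against B6 in all 20 alternatives (highest adjusted p = 0.0235) and against the mean of both strains in 18 of 20 (highest 0.114). Against 129/Sv, where it missed the threshold, it passed in 6 of 20, among them 1 probe set per gene (adjusted p = 0.0493). The estimates that changed sign had not been called. Junb went to -0.009 with equal medians against the mean of both strains, to 0.1585 with the replicate block against 129/Sv and to 0.0046 with it between the strains. With 1 array left out Junb ran from -0.4477 to 0.4713 against the mean, -0.3611 to 0.5579 against B6 and -0.5343 to 0.3847 against 129/Sv. Zfp36 ran from -0.1066 to 0.2813 against the mean and -0.2733 to 0.1146 against 129/Sv, and Dusp1 from -0.0009 to 1.4208 against 129/Sv. Between the strains Fos ran from -0.8725 to 0.0585 and Ccn1 at 1438133_a_at from -0.0678 to 0.3288. With 2 to 4 arrays a group, and no detection calls, small differences and low signals such as those of Atf3 are not resolved.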
